A study of Bos taurus with 16 samples.

Results

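The proteins of the cytosolic small ribosomal subunit were followed in the blood RNA of dairy cows, through 120 array probes of 33 genes, out of 43653 probes and 16966 gene symbols on the array. A probe belonged to the set when its deposited gene symbol was RPSA or RPS followed by a number, with an optional A, X, Y or L and a further number, so that the S6 kinases and the mitochondrial proteins stayed out. The choice used symbols and no measured value. Each gene had between 2 and 8 probes, with 8 for RPS6, 7 for RPS26 and 2 for RPSA, RPS4Y1, RPS7, RPS9, RPS13 and RPS27A. All 33 symbols were current symbols in the bovine RefSeq gene table.

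The small subunit holds the ribosomal RNA that reads the messenger RNA, and its proteins are built onto that RNA in the nucleolus, largely in equal numbers. Their messenger RNAs are among the most abundant of most cells, begin with a pyrimidine tract that ties their translation to mTOR signalling, and are made together with those of the large subunit. In blood the subunit is best known from Diamond-Blackfan anaemia and the 5q- syndrome, in which the loss of 1 copy of such a gene impairs red cell formation. Lymphocytes and monocytes carry many ribosomes, whereas mature neutrophils and red cells carry few.

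The samples were whole blood of Holstein Friesian lactating cows, 10 animals in 2 arms of 5, bled into citrate dextrose tubes and kept for 30 min at 37 °C in 5% CO2. The 4 groups were day 0, before supplementation; probiotic at day 60, after daily oral yeast, Enterococcus, Lactobacillus, Bacillus and Aspergillus products; untreated at day 60, after water alone; and LPS, the blood of the probiotic cows at day 60 with 100 ng/ml of bacterial lipopolysaccharide added in the tube. Red and white cells were lysed differentially before RNA was prepared, RNA with an integrity number above 7 was pooled within a group, and 0.5 µg was labelled with Cy3. The day 0 pool is labelled as the probiotic arm; whether it also held cows of the other arm is not given in the sources used here. Every group had 4 arrays of its 1 pool, so n = 4 counts repeat hybridisations, and p-values measure only the spread between these arrays, not between cows. Slides held 1 group each, which leaves slide and group impossible to tell apart. The probiotic and LPS arrays were scanned on the same day, and the day 0 and untreated arrays on 1 further day each.

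The arrays differed in brightness, which touches every value below. Between 8.26% and 42.1% of spots were well above background by the scanner software's own call. Spike-ins are RNAs of fixed amount added to each labelling. The one that was brightest on most arrays gave net signals of 249 to 17966 on day 0, 89.6 to 59872 on probiotic, 8.51 to 19.1 on untreated and 4770 to 119174 on LPS arrays, so the untreated arrays were the dimmest for it. Another spike-in, E1A_r60_a22, gave 100 to 136 on untreated and 23.5 to 111 on day 0 arrays, so the spike-ins did not order the groups alike. The arrays numbered 4 of day 0, probiotic and LPS stood apart from the other 3 of their group. Detection also followed the place on the array: in the 53 outermost rows at either end 37.4% of spots were detected on day 0, 60.3% on probiotic, 17.5% on untreated and 57.4% on LPS arrays, against 12.3%, 17.2%, 15.5% and 21.7% in rows 107 to 213. The blood's defining markers were measured through their own lists. Of 10 neutrophil genes 8, 9, 5 and 9 were detected on at least 1 array of day 0, probiotic, untreated and LPS, with S100A8, S100A9, CXCR1, FCGR3A and ALPL undetected in the untreated group. Of 9 T cell genes 7, 9, 7 and 9 were detected, of 5 platelet genes 4, 4, 2 and 5, and of 7 killer cell genes 4, 6, 4 and 6. Of 6 monocyte genes 4, 3, 4 and 5 were detected, of 6 B cell genes 5, 4, 4 and 5, and of 9 erythroid genes 4, 5, 4 and 4.

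Pairs of member probes that read nearly the same stretch of 1 messenger RNA are shown first, because the results below turn on how far such pairs differed from each other. Probes are 60 bases long, printed 5′ to 3′ as in the deposited probe table, and capitals mark the run that both probes of a pair share. A pair of RPS3 probes, for a protein that lines the entry channel of the messenger RNA, share 52 bases and lie in row 274, column 79, and row 367, column 15.
A_73_P383451: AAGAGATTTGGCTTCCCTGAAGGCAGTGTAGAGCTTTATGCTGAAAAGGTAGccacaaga
A_73_P470708: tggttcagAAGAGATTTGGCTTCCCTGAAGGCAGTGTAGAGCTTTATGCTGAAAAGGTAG
RPS4X and RPS4Y1 are paralogues, and a probe annotated to each shares 40 bases with the other, in row 481, column 14, and row 428, column 53. All animals were female, and the probes may not tell the paralogues apart, so RPS4Y1 below means the probe with that annotation.
A_73_P161427: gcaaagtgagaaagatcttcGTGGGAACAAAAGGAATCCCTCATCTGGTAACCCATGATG
A_73_P349316: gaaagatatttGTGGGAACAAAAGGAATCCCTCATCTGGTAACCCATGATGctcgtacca
As a set, the member probes had a median GC content of 43.3%, against 45% over all probes. The polyadenylation signal AATAAA lay in 33 of 120 member probes (27.5%), in 45 of 191 large-subunit probes (23.6%) and in 9.35% of all probes, and its reverse complement in 2 members (1.67%) and 3.46% of all probes.

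Small-subunit probes were detected more often than the array as a whole in every library. Of the 120 member probes, 78, 75, 66 and 60 were well above background on day 0 replicates 1 to 4, and 79, 70, 71 and 61 on the probiotic arrays. The untreated arrays detected 50, 72, 64 and 50 of them, and the LPS arrays 78, 78, 88 and 94. The ranges of the day 0, probiotic and untreated groups overlapped, while each LPS array detected at least as many as all but 1 of the other arrays. In all, 21 member probes were detected on every array and 9 on none. Probes were tested when detected on at least 4 of 16 arrays in any groups, which left 92 of the 120 member probes and 16902 of all probes; every probe was tested in 12 genes.

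**Figure D1:**
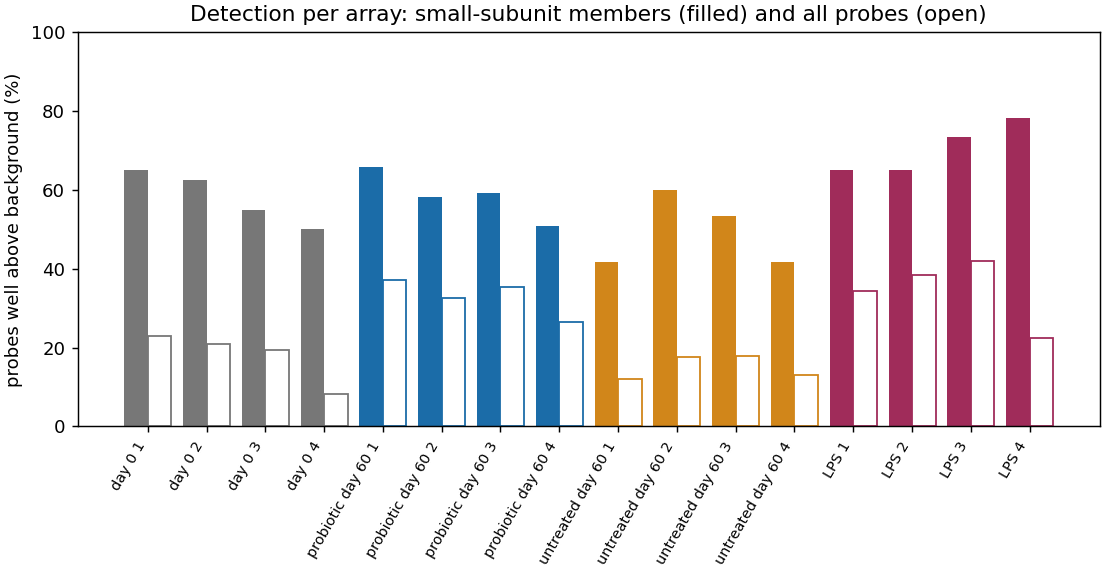
Share of probes well above background (%, vertical axis) on each of the 16 arrays, with filled bars for the 120 small-subunit probes and open bars for all probes, coloured by group. Member probes were detected more often than all probes on every array, with 50 detected on the lowest untreated arrays and 94 on LPS replicate 4.

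Each gene is described by its representative probe, the tested probe with the highest mean over all 16 arrays. Values are log2 of the background-subtracted signal after scaling, with a floor of 4.89 below which values have no order. Levels of different probes are not set against each other as amounts. On day 0, the median percentile of the 33 representative probes among all probes lay between 99.4 and 99.8 on the 4 arrays. It lay between 99.7 and 99.8 on the probiotic arrays, between 98.98 and 99.8 on the LPS arrays and between 91.02 and 94.96 on the untreated arrays. The untreated arrays ranked these probes lower than all 12 other arrays did, though those 12 arrays also weighed most in choosing them. Over all 120 member probes the median percentile was 82.4 to 86.9 on untreated, 84.4 to 92.1 on day 0, 74.5 to 98.2 on probiotic and 91.8 to 98.2 on LPS arrays. These ranges overlapped, except that every LPS array lay above every untreated array.

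**Figure D2:**
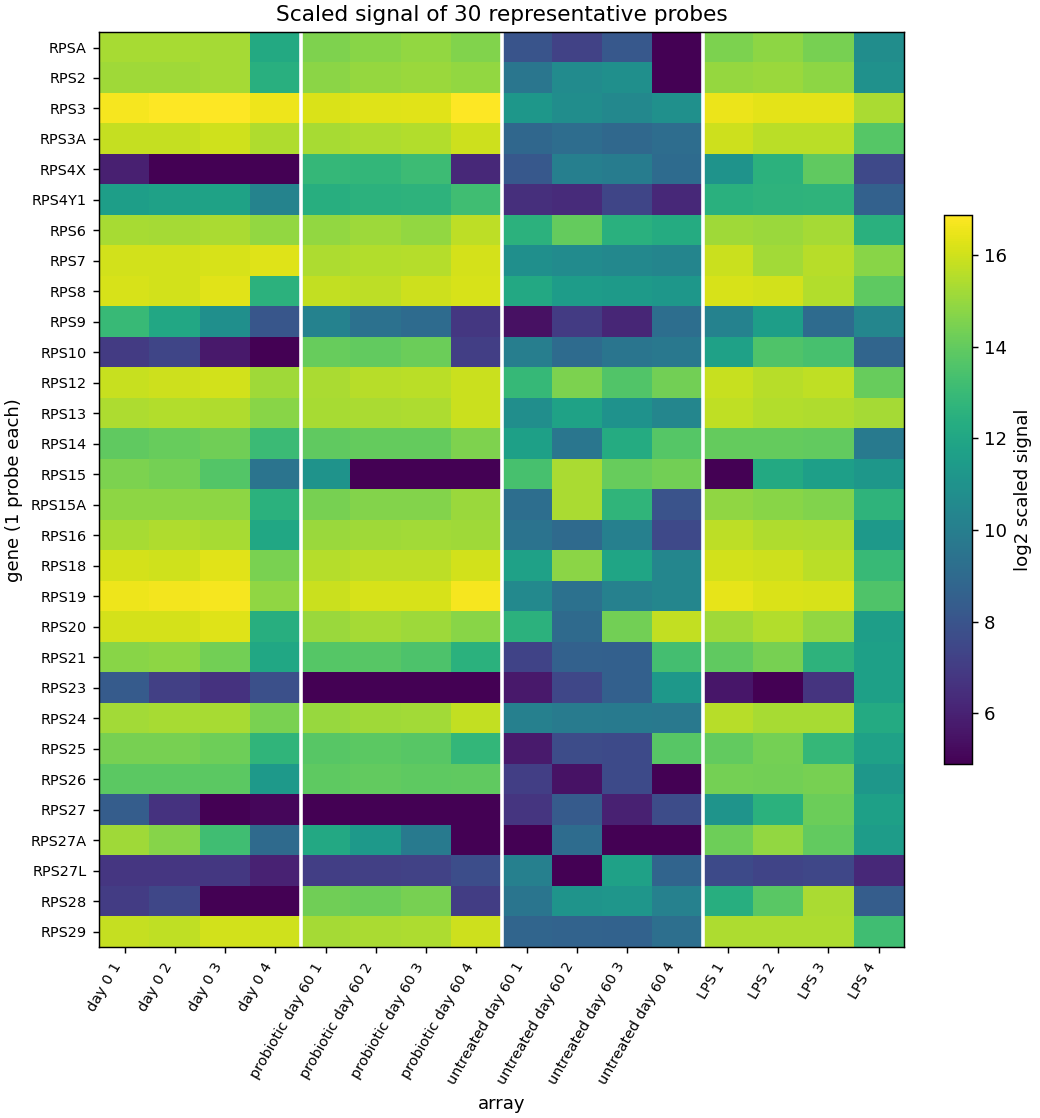
Log2 scaled signal (colour, floor at 4.89) of the representative probes of 30 of the 33 genes (rows) on the 16 arrays (columns), with white lines between groups. Most rows are bright on the day 0, probiotic and LPS arrays and dim on the untreated ones, as for RPSA with 14.54 to 14.91 on probiotic against 4.89 to 8.20 on untreated arrays; RPS4X, RPS10 and RPS28 are dim on day 0 and on probiotic replicate 4.

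The probiotic and untreated pools at day 60 were compared to see how the blood differed with the supplement. Most representative small-subunit probes were higher in the probiotic pool: 21 of 33 rose, 3 fell (RPS15, RPS23 and RPS27) and 9 did not pass, with a median log2 difference of 3.60. The choice of representatives used the signals compared here, so the split is a description. Chosen the same way, the representatives of all 6846 genes with at least 2 probes on the array and 1 tested were called higher in 30.7% and lower in 29.9%, with a median of 0.07. This background was added after the data were seen. Over all 92 tested member probes the picture was mixed, with 32 higher and 18 lower, where a call needed an adjusted p under 0.05 in limma and a difference of at least 1 on the log2 scale. In the background of all tested probes 25.2% were called higher and 29.9% lower. In this main setting the members' share of higher calls lay above the background and their share of lower calls below it. By percentile rank on the array this turned, with 21 of 92 higher and 12 lower against 35.9% and 9.02% of all tested probes. By rank within a band of rows and among neighbouring spots, 21 and 22 of 92 were higher, also below the background of 31.8% in each. The median over tested members was 1.99, against -0.05 over all tested probes, and it turned to -1.02 after cyclic loess normalization and to -0.21 in the authors' averages. The split of 32 higher and 18 lower became 14 and 25 after cyclic loess and 57 and 9 with no scaling. Over all tested probes the shares were then 6.40% and 30.4%, and 52.6% and 9.72%. All 4 probiotic arrays lay above all 4 untreated arrays for 27 member probes and below them for 13 (background 22.3% and 22.9%).

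In the body and platform of the subunit, the changes ran from RPSA, which lies at the messenger RNA exit side, to RPS6, the main substrate of the S6 kinases. RPSA gave 14.54, 14.76, 14.91 and 14.62 on the probiotic arrays and 8.02, 7.25, 8.20 and 4.89 on the untreated arrays. The groups did not overlap, and the difference was 7.62 ± 0.98 (SE, limma adjusted p = 1.48e-05). On untreated replicates 2 and 4 the RPSA values lay below the dimmest signal detected on that array (184 and 173 scaled units). Replicate 4 was at the floor, so the size of the RPSA difference depends on the floor. RPS26, which contacts the messenger RNA upstream of the start codon, gave 13.90 to 13.98 on probiotic arrays against 7.12, 5.45, 7.60 and 4.89. This probe was not well above background on any untreated array, so its change is a bound, at least 77.9-fold higher (limma adjusted p = 2.19e-06). Such a bound compares the mean of the bright group with a mean over the dim arrays in which no value may lie below that array's dimmest detected signal. The other 3 tested probes of RPS26 were detected on 1 or 2 untreated arrays and were not called, with 1.39, 1.08 and -3.44 (limma adjusted p from 0.0779 to 0.519). RPS3A, at the platform, rose by 6.50 ± 0.38, from 8.91 to 9.17 on untreated to 15.32 to 15.95 on probiotic arrays. RPS2, near the entry channel, rose by 5.93 ± 1.24 and RPS24 by 5.42 ± 0.57 (limma adjusted p = 0.00104 and 2.38e-06). On untreated replicate 4 RPS2 was at the floor, so the size of its rise depends on the floor. For RPS3A, RPS2 and RPS24 only 1 of 5, 1 of 4 and 1 of 3 tested probes was called. Their lowest differences were -1.17, -4.41 and 0.71.

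The probe annotated RPS4Y1 was at least 33.4-fold higher (probiotic 12.41, 12.59, 12.64 and 13.21; untreated 6.49, 6.37, 7.38 and 6.24; limma adjusted p = 9.49e-06), and a second probe with that annotation gave -0.30 and was not called. For RPS6 the untreated arrays were brighter, at 12.60, 14.03, 12.48 and 12.27 against 14.93, 15.10, 14.92 and 15.68. The groups still did not overlap, and RPS6 rose by 2.31 ± 0.55 (limma adjusted p = 0.0026), a direction that turned under cyclic loess (-2.29). Of 6 tested RPS6 probes 2 were called higher and 2 lower, the lowest at -3.49. RPS14, the gene lost in the 5q- syndrome, rose by 2.32 ± 0.94 and RPS15A by 3.37 ± 1.24 (limma adjusted p = 0.0473 and 0.0319; -1.83 and -0.95 with cyclic loess). Of these, RPS15A lost its call without the arrays numbered 4 (adjusted p = 0.0692). RPS27, a zinc finger protein, was at the floor on all 4 probiotic arrays and at 6.76, 8.33, 5.98 and 7.67 on the untreated arrays, a fall of 2.30 ± 0.79 (limma adjusted p = 0.0235; 0.0501 without the arrays numbered 4). On untreated replicates 1 and 3 its values lay below the dimmest signal detected on that array (233 and 221 scaled units). The size of the RPS27 fall depends on the floor, and its difference ran from -4.49 to -0.117 over 23 other settings. RPS23, a protein of the decoding centre, was likewise at the floor in the probiotic group and fell by 3.35 ± 1.31 (adjusted p = 0.0417). RPS4X gave 1.96 ± 1.48 and RPS27L, a p53-induced paralogue of RPS27, -1.57 ± 1.01; neither passed (adjusted p = 0.272 and 0.202). Without the arrays numbered 4, RPS4X passed (3.63; adjusted p = 0.000611). The calls of RPS14, RPS15A, RPS23 and RPS27 were lost under 15, 13, 14 and 10 of 23 other settings.

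In the head of the subunit, the representative probes of RPS29, RPS16, RPS19, RPS3, RPS25, RPS18 and RPS12 rose. Other probes of some of these genes differed: 2 of 3 tested RPS18 probes and 1 of 5 for RPS19 were called lower. The lowest differences of RPS18 and RPS19 probes were -7.09 and -5.29. For RPS29 only 1 of 3 tested probes was called. RPS3 gave 16.20 to 16.85 against 10.47 to 11.23, a difference of 5.58 ± 0.27 (adjusted p = 7.96e-10). The gap between the groups was many times the spread within them. RPS19, the gene most often mutated in Diamond-Blackfan anaemia, rose by 6.12 ± 0.59, from 9.37 to 10.52 on untreated to 15.92 to 16.71 on probiotic arrays. RPS29 rose by 6.65 ± 0.42 and RPS18 by 3.53 ± 0.85 (limma adjusted p = 1.21e-08 and 0.00286), RPS18 with -1.16 under cyclic loess. RPS15, a protein of the head near the peptidyl site, went the other way, at 11.05, 4.89, 4.89 and 4.89 on probiotic and 13.39, 15.33, 14.09 and 14.34 on untreated arrays. Its fall of 7.86 ± 1.74 (limma adjusted p = 0.0016) rests on 3 probiotic arrays at the floor. The differences of RPS10 (2.76), RPS20 (2.13), RPS27A (3.60), which is made as a fusion with ubiquitin, and RPS28 (2.01) did not pass (adjusted p from 0.0799 to 0.313). Without the arrays numbered 4, RPS10 (4.51), RPS27A (5.15) and RPS28 (3.81) passed (limma adjusted p = 1.2e-05, 0.00145 and 0.00134).

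The probes of a gene often went different ways in this comparison. Every tested probe was called higher in only 5 genes, RPS13, RPS14, RPS16, RPS21 and RPSA, of which RPS14 and RPSA had 1 tested probe each. No gene was called lower throughout, and 17 genes had called and uncalled probes. In 6 genes, RPS6, RPS10, RPS18 and RPS19 among them, probes were called in opposite directions. Head and body did not separate: 14 of 40 tested head probes were higher and 8 lower, and 18 of 52 body and platform probes were higher and 10 lower. The probiotic arrays also detected far more of the spots around the 32 higher probes, 31.4% to 66.3% (median 55.6%) of neighbouring spots against 7.27% to 49.9% (median 13.01%) on the untreated arrays. Around the 18 lower probes it was 0.143% to 24.7% on probiotic and 11.7% to 27.3% on untreated arrays. Neighbouring spots are those within 10 rows and 8 columns, and the part of place in these calls was not tested. Where at least 20% of the neighbours were detected in both groups, which left 14 member probes of 12 genes, 5 were higher (RPS6, RPS14, RPS15A, RPS18 and RPS29) and 1 lower (RPS15), against 12.5% and 29.0% of all probes so placed. This limit on neighbours was chosen after the data were seen.

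**Figure D3:**
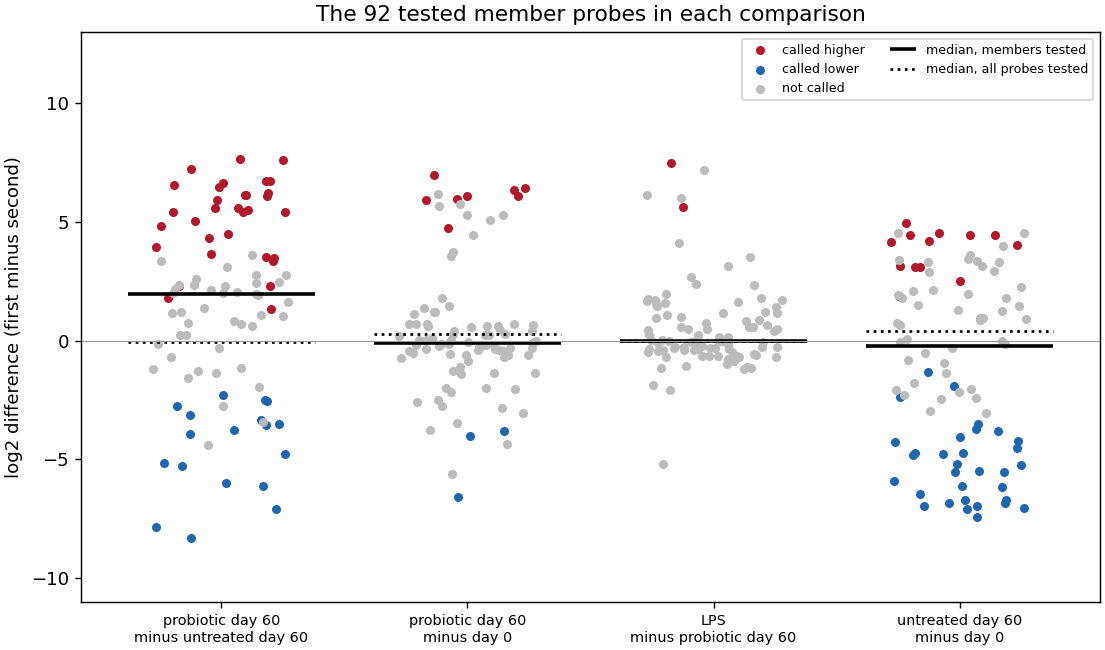
Log2 difference (first group minus second, vertical axis) of the 92 tested small-subunit probes in each of the 4 comparisons, red for called higher, blue for called lower and grey for not called; solid lines give the members' median and dotted lines that of all tested probes. The members' median of 1.99 stands above that of all probes in the first comparison (-1.02 under cyclic loess), while in the LPS comparison nearly all members lie near 0.

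Day 60 against day 0 in the probiotic cows asks what changed over the supplementation period; both day 60 comparisons with the probiotic pool share its 4 arrays, and likewise those with day 0. Few of the brightest small-subunit probes passed: of 33 representatives 4 rose, among them RPS28, RPS4X and RPS10, 1 fell (RPS15) and 28 did not pass, with a median of 0.03. Of representatives chosen the same way over the array, 3.59% were higher and 0.745% lower. Over all 92 tested probes 8 were higher and 3 lower, 8.70% and 3.26%, against 3.61% and 0.805% of all tested probes. The members' median was -0.08, against 0.28 for all probes, and its sign depended on the scaling, from -1.31 with cyclic loess to 2.16 with no scaling. The split became 0 and 6 after cyclic loess, 35 and 5 with no scaling and 9 and 26 on the software's processed signal. Over all tested probes the shares were then 0.698% and 1.62%, 61.3% and 0.917%, and 24.9% and 21.1%. All 4 probiotic arrays lay above day 0 for 6 member probes and below for 10 (background 25.5% and 5.98%). At an unadjusted p under 0.05 in limma, 28 of 92 member probes differed, against 21.8% of all tested probes.

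Among those that did not pass were RPS3 with -0.33 ± 0.27, RPS6 with -0.06 ± 0.55, RPS19 with 0.02 ± 0.59, RPSA with 0.19 ± 0.98, RPS3A with -0.22 ± 0.38 and RPS29 with -0.40 ± 0.42 (limma adjusted p from 0.542 to 1). RPS3 gave 16.71, 16.83, 16.87 and 16.59 on day 0, a range that overlaps that of the probiotic arrays. Among the rises were genes whose day 0 values were near the floor. RPS10, at the messenger RNA entry site, gave 6.98, 7.41, 5.73 and 4.89 on day 0 and 14.11, 13.99, 14.18 and 7.10 on the probiotic arrays (6.09 ± 1.44; adjusted p = 0.0292). RPS28, next to the exit channel, gave 7.03, 7.43, 4.89 and 4.89 against 14.28, 14.20, 14.44 and 7.07 (6.44 ± 1.64; adjusted p = 0.0403). RPS4X gave 5.96 and 3 values at the floor against 12.89, 12.83, 13.11 and 6.26 (6.12 ± 1.48; adjusted p = 0.0325). In these 3 genes probiotic replicate 4 lay within 1 log2 unit of, or below, the highest day 0 array, far from the other 3. RPS15 gave 14.50, 14.37, 13.67 and 9.52 on day 0 and fell by 6.59 ± 1.74 (adjusted p = 0.0453). These calls were lost under 12 (RPS10), 14 (RPS28), 11 (RPS4X) and 10 (RPS15) of 23 other settings.

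No gene was called through all its tested probes. In 8 genes, among them RPS2, RPS3A, RPS4X, RPS10, RPS15, RPS18 and RPS28, only some probes were called. The 8 higher probes lay in a common kind of place, with 30.4% to 35.3% of neighbouring spots detected on probiotic and 0.439% to 3.55% on day 0 arrays. Where at least 20% of neighbours were detected in both groups, limma called 0 of 38 member probes of 26 genes in either direction. Of all probes so placed it called 3.27% higher and 0.492% lower, so no call among 38 does not set the members apart. Of the 38, 1 had an unadjusted p under 0.05 in limma. Single arrays decided the count: 17 probes were higher without probiotic replicate 4, and 0 or 1 without any other of the 8 arrays. Of all tested probes 7.44% were higher without probiotic replicate 4, and 1.48% to 1.96% without any other array. The lower calls numbered 0 to 2 over the same 8 fits, against 0.284% to 0.958% of all tested probes.

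LPS was added to blood of the probiotic cows as a positive control of the response to bacterial wall. Few small-subunit probes passed against the same cows' blood without it: 2 of 92 were higher, for RPS27 and RPS4X, and 0 lower, against 0.319% and 0.0118% of all tested probes. The members' median was 0.01, against 0 for all probes, and all 4 LPS arrays lay above all 4 probiotic arrays for 5 member probes and below them for 0 (background 2.99% and 1.37%). In limma 7 member probes had an unadjusted p under 0.05 with a rise and 1 with a fall, against 3.77% and 1.75% of all tested probes. RPS27 was at the floor on all 4 probiotic arrays and at 11.08, 12.54, 14.18 and 11.69 on the LPS arrays. The fitted difference of 7.49 ± 0.79 (limma adjusted p = 0.000564) depends on where the floor is put. This probe kept its call under each of the 23 settings tried for single genes, with a difference of 4.51 to 9.37 and an adjusted p of at most 0.00905. The other 2 tested probes of RPS27 gave -0.56 and 1.15 and were not called, so the rise was seen by 1 of 3 probes. Of its neighbouring spots 24.7% were detected on probiotic and 41.4% on LPS arrays, and the part of this in the call was not tested.

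RPS4X was called through a probe that is not its representative, A_73_P078351. It gave 5.70, 4.89, 4.89 and 6.41 on probiotic and 10.80, 12.32, 13.86 and 7.37 on LPS arrays, a difference of 5.62 ± 1.07 (limma adjusted p = 0.0428). The representative probe of RPS4X gave 0.00 ± 1.48 instead, with 11.03, 12.57, 13.93 and 7.55 on LPS and 12.83 to 13.11 on 3 probiotic arrays and 6.26 on replicate 4. Of the other representatives, RPS3 gave 16.53, 16.38, 16.36 and 15.36, RPS19 16.41, 16.17, 16.13 and 13.57, and RPSA 14.52, 14.86, 14.41 and 10.75. In each of them the first 3 LPS arrays lay close to the probiotic arrays and replicate 4 lay below. Where at least 30% of neighbours were detected in both groups, limma called 0 of 49 member probes of 26 genes in either direction (0 at an unadjusted p under 0.05). Of all probes so placed it called 0.0336% higher and 0% lower, so no call among 49 does not set the members apart. At 20% it called 1 of 68 members higher, RPS27, against 0.113% higher and 0% lower of all probes so placed. The count of higher calls was 3 without LPS replicate 4, 2 without probiotic replicate 4 or LPS replicate 2, and 1 without any other of the 8 arrays. Over all tested probes the share of higher calls ran from 0.148% to 0.609% over these fits.

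The untreated pool at day 60 was set against day 0 to see what changed without the supplement, though the day 0 pool carries the other arm's label. Most representative probes were lower at day 60: 21 of 33 fell, 3 rose, RPS28 and RPS4X among them, and 9 did not pass, with a median of -4.06. Of representatives chosen the same way over the array, 29.3% were higher and 21.3% lower, with a median of 0.26. Over 92 tested probes 13 were higher and 32 lower, against 29% and 16.3% of all probes, and the members' median of -0.22 stood against 0.39 for all probes. All 4 untreated arrays lay above all 4 day 0 arrays for 22 member probes and below them for 26 (background 24.3% and 12.2%). The members' median turned to 0.90 with cyclic loess and to 0.34 with no filter on dim probes. The split became 19 and 19 after cyclic loess and 1 and 37 when scaled to the 75th percentile of all probes. Over all tested probes the shares were then 24.4% and 3.58%, and 12.5% and 25.1%. RPSA fell by 7.43 ± 0.98, from 15.32, 15.29, 15.26 and 12.19 on day 0, a size that depends on the floor, where untreated replicate 4 lay. RPS29 fell by 7.05 ± 0.42 and RPS3A by 6.72 ± 0.38 (limma adjusted p from 5.1e-09 to 1.99e-05 over these 3 genes). For each of them the highest untreated array lay below the lowest day 0 array.

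RPS27A fell by 7.08 ± 1.66, with 15.17, 14.70, 13.21 and 9.03 on day 0 and 9.13 on untreated replicate 2, the only untreated array off the floor (limma adjusted p = 0.00289). The RPS26 probe was at least 47.9-fold lower (day 0 13.86, 13.86, 13.84 and 11.37; adjusted p = 5.73e-06) and RPS4Y1 at least 12.9-fold lower (adjusted p = 0.000109). The representative probe of RPS19 fell by 6.10, that of RPS3 by 5.92, RPS2 by 5.52, RPS24 by 5.18, RPS18 by 3.51 and RPS6 by 2.37. The size for RPS2 depends on the floor, where untreated replicate 4 lay. Some other probes went the other way: 2 of 3 tested for RPS18, 1 of 6 for RPS6 and 1 of 5 for RPS3A were called higher. The highest differences of RPS18, RPS6 and RPS3A were 4.21, 2.14 and 4.55. Only 1 of 4 tested RPS2 probes and 1 of 3 for RPS24 and for RPS29 was called lower. Among the representatives that rose were RPS28 with 4.43 ± 1.64 and RPS4X with 4.15 ± 1.48 (limma adjusted p = 0.0397 and 0.0331), genes near the floor on day 0. RPS10 (3.33), RPS14 (-2.02), RPS15A (-2.96), RPS20 (-2.31), RPS27 (0.92) and RPS27L (2.27) did not pass (adjusted p from 0.0649 to 0.371). Without the arrays numbered 4, RPS10 (2.87), RPS14 (-2.29) and RPS20 (-3.25) passed (limma adjusted p = 0.000429, 0.0201 and 0.0454). In 6 genes every tested probe was lower (RPS9, RPS13, RPS16, RPS21, RPS27A and RPSA), and in 5 genes probes were called in opposite directions. The higher calls numbered 8, 7 and 8 without day 0 replicates 1, 2 and 3, and 9 to 13 without any other array. Over these fits 26.6% to 32.8% of all tested probes were higher. Around the 32 lower probes 14.3% to 44.8% of neighbours were detected on day 0 and 6.36% to 49.9% on untreated arrays, and around 31 of them more on day 0; the part of place was not tested. With at least 20% of neighbours detected in both groups, 3 of 9 member probes were lower (RPS6, RPS18 and RPS29) and 0 higher (limma), against 7.6% and 28.4% of all probes so placed.

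Overlapping probes of 1 gene were compared within each array, to see how the difference within a pair varied between groups. There were 16 pairs within 13 genes that shared at least 40 of 60 bases on the same strand. The median size of the difference within a pair was 3.83 on day 0, 3.79 on probiotic, 1.06 on untreated and 2.71 on LPS arrays, on the log2 scale. Pairs at least 16-fold apart numbered 8, 7, 3 and 7 of 16. In 2, 5, 3 and 1 pairs 1 probe was well above background on no array of the group and in 1, 2, 2 and 0 pairs neither was, so the sizes of these differences depend on the floor.

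The RPS18 pair, with 50 shared bases, differed by 6.83 ± 1.53 (SD over 4 arrays) on day 0, 0.24 ± 0.83 on untreated and 8.61 ± 3.97 on LPS arrays. On the probiotic arrays the second probe was at the floor, so the difference was at least 10.86. Between the probiotic and untreated groups 1 of its probes was called higher and the other lower. On the probiotic arrays 65.5% of the spots around the first probe were detected and 4.93% around the second; on the untreated arrays these shares were 38.4% and 14.3%. The RPS3 pair shown above differed by 5.53 ± 3.69 on probiotic and 5.15 ± 3.41 on LPS arrays. On day 0 the second probe was not well above background and the difference was at least 4.51, and on the untreated arrays neither probe was. The RPS4Y1 and RPS4X probes shown above differed by at least 7.83 on probiotic arrays, where the RPS4X probe was at the floor. On the untreated arrays the RPS4Y1 probe was not well above background and lay at least 0.80 below the RPS4X probe. They were called in opposite directions between these groups. Other pairs stayed close, such as a pair of RPS19 with 51 shared bases at 0.69 ± 0.63, 0.60 ± 0.36, 1.70 ± 0.65 and 0.81 ± 0.58 in the 4 groups (on day 0 over 3 arrays, as 1 spot was flagged). Both of its probes lay among neighbours detected at like rates, 60.4% and 55.2% on the probiotic arrays. The brighter probe of a pair lay where more neighbours were detected in 14 of 16 pairs on day 0, 14 on probiotic, 10 on untreated and 14 on LPS arrays, and in every pair at least 16-fold apart. Of the 13 pairs with both probes tested, 2 had the same call in probiotic against untreated, 1 had no call, 7 had 1 probe called and 3 had opposite calls. Among 7140 pairs of member probes none lay on opposite strands with 16 or more shared bases.

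**Figure D4:**
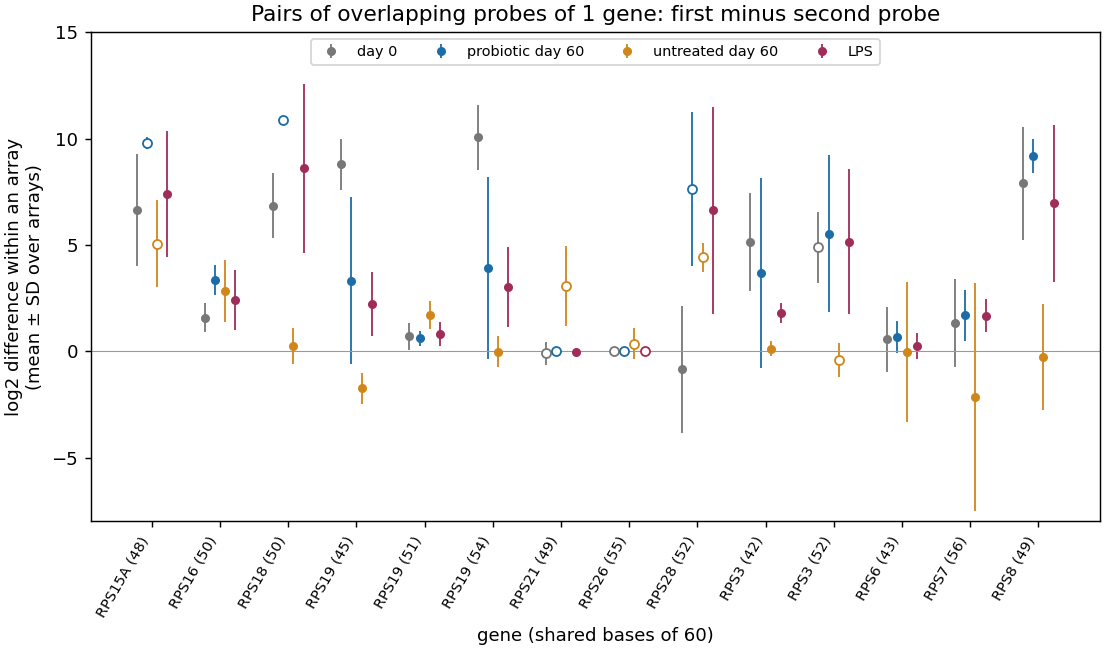
Log2 difference between the 2 probes of each overlapping pair (vertical axis; mean ± SD over 4 arrays, or 3 where 1 spot was flagged, coloured by group) for 14 of the 16 pairs, of 11 genes, with the shared bases of 60 in brackets. Open points mark groups in which a probe was well above background on no array, where the size depends on the floor. The RPS18 pair reads at least 10.86 on probiotic and 0.24 on untreated arrays, while 1 RPS19 pair stays between 0.60 and 1.70.

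Over all 120 member probes, brightness went with the detection of the surrounding spots. Spearman's rho between a member's mean percentile and the share of detected neighbours was 0.588 on day 0, 0.704 on probiotic, 0.427 on untreated and 0.608 on LPS arrays. Over all 43653 probes the same rho was 0.234, 0.395, 0.308 and 0.432. These are descriptions across probes, which share arrays and are not independent. The shares of detected neighbours around members ran from 0.439% to 44.8% on day 0, from 0.143% to 66.3% on probiotic, from 2.87% to 49.9% on untreated and from 3.58% to 64.8% on LPS arrays. At least 40% of neighbours were detected around 6, 37, 3 and 40 members.

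**Figure D5:**
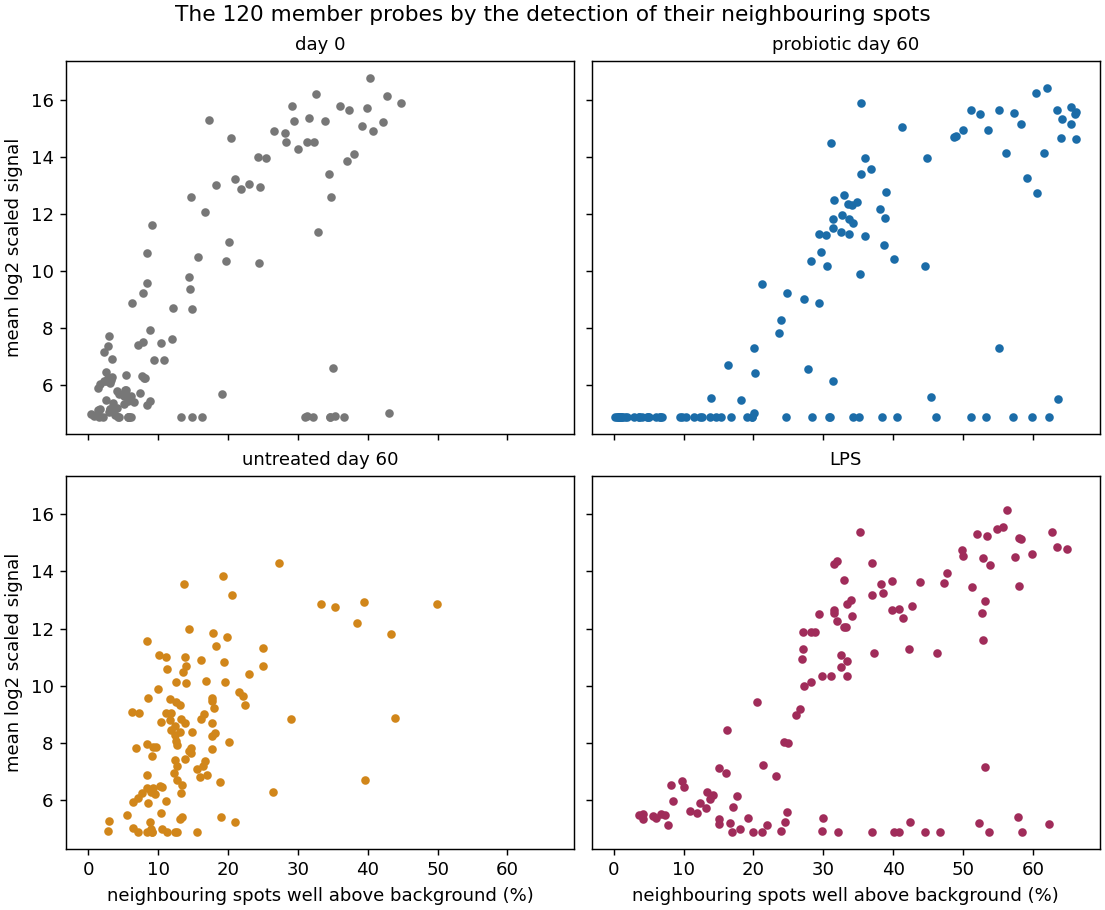
Mean log2 scaled signal of each of the 120 small-subunit probes (vertical axis, floor at 4.89) against the share of well-detected spots within 10 rows and 8 columns (%, horizontal axis), 1 panel per group. Signal rises with the share on day 0, probiotic and LPS arrays, and the untreated panel has 3 members beyond 40%.

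Other ribosomal lists are counted the same way, as tested probes higher and lower, in the order probiotic against untreated, probiotic against day 0, LPS against probiotic, and untreated against day 0. Over all tested probes the shares were 25.2% and 29.9%, 3.61% and 0.805%, 0.319% and 0.0118%, and 29% and 16.3% in that order. Large-subunit proteins had 59 and 31, 11 and 11, 6 and 0, and 17 and 62 of 152 tested probes, with medians of 1.88, -0.14, -0.08 and -1.18. Mitochondrial small-subunit proteins had 9 and 4, 0 and 1, 0 and 0, and 2 and 9 of 29. Factors that assemble the small subunit had 25 and 10, 2 and 0, 0 and 0, and 9 and 15 of 59. Regulators of ribosomal protein synthesis, such as mTOR pathway genes and S6 kinases, had 9 and 5, 2 and 1, 0 and 0, and 2 and 9 of 25. Members mutated in Diamond-Blackfan anaemia had 9 and 5, 2 and 0, 1 and 0, and 2 and 9 of 33. In probiotic against untreated that is 27.3% higher and 15.2% lower, against 25.2% and 29.9% of all tested probes. The share of higher calls is close to that background and the share of lower calls is below it. The comparisons share their control arrays, so their counts are not independent of each other.

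Markers of the blood cells, like all tested probes, were called mainly in the comparisons with the untreated pool. Of 65 tested probes of the 7 marker lists, limma called 12 higher and 21 lower in untreated against day 0 (background 29% and 16.3%). It called 2 higher and 1 lower in probiotic against day 0 (background 3.61% and 0.805%). In LPS against probiotic it called 0 (background 0.319% and 0.0118%). There 5 had an unadjusted p under 0.05, against 3.77% with a rise and 1.75% with a fall over all tested probes. In probiotic against untreated, 25.2% of all tested probes were higher and 29.9% lower. Of the markers, 8 of 13 tested neutrophil probes were higher and 3 lower, 8 and 3 of 15 T cell probes, 3 and 1 of 8 monocyte, 3 and 2 of 6 B cell, 1 and 2 of 10 killer cell, 2 and 2 of 7 erythroid, and 3 and 1 of 6 platelet probes. The summed T cell signal was 16009 to 23268 scaled units on probiotic, 2734 to 5563 on untreated, 8691 to 14962 on day 0 and 11124 to 20945 on LPS arrays. The summed B cell signal, at 9080 to 12243 on probiotic and 10664 to 25327 on untreated arrays, overlapped. The sum over small-subunit members was 1287910 to 1375380 on probiotic, 139086 to 576435 on untreated, 659024 to 1611110 on day 0 and 426798 to 1547170 on LPS arrays. The part of these cell types in the members' differences was not tested, and in whole blood fewer cells of a type and less RNA per cell cannot be told apart.

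The probes of other symbols whose pattern over the 16 arrays was most like the 33 representatives were RPL30, a large-subunit protein, with a mean Pearson correlation of 0.62, MAT2B with 0.61, AHCY with 0.61, CHCHD2 with 0.61 and the histone gene H2AFZ with 0.61. MAT2B and AHCY belong to methionine metabolism, and CHCHD2 codes for a mitochondrial protein. The correlations span groups that differ in brightness and are given as a description.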

How the data were processed

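Whole blood RNA pools were measured on 16 one-colour arrays, 4 per group. The authors deposited 1 scanner file per array from Agilent Feature Extraction 10.10.1.1 (per the submitters' processing notes and the file headers), with a background-subtracted intensity per spot that is not normalized between arrays. They also deposited a table of group averages, 1 log2 value per probe and group, whose scale, centring and steps are not given in the sources used here; it served for symbols, probe sequences and as an alternative.

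Outlier-flagged spots were dropped and spots of a probe averaged. Each array was divided by its 75th percentile over the 714 probes well above background on all 16 arrays (21 of them members), and values under 29.6 scaled units were set to that floor before log2. Probes detected on at least 4 arrays were tested, two-sided, in limma 3.58.1 (lmFit, eBayes; R 4.3.3), all 16 arrays in 1 fit, with Benjamini-Hochberg adjustment over 16902 probes; a call needed an adjusted p under 0.05 and a difference of at least 1. Errors are SE for differences and SD for arrays. Scaling on probes detected everywhere replaced the percentile of all probes because under 50% of spots were detected, and the signal before the software's spatial detrending (applied on day 0 replicates 2 to 4 and LPS replicate 4) was used. The script was tested on simulated data. With 4 arrays per group, their number limits the precision.

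The members, lists and rules were chosen with earlier results of these data known. Named genes were the 5 representatives with the largest called rise and the 5 with the largest called fall per comparison, and 21 members of known role throughout; members named beside a count, such as RPS12, RPS16 and RPS25, were chosen after their values were seen. Results of some members are not reported here; counts include them. Alternatives changed the signal column, scaling, background correction, filter, floor, replicate block and arrays used. Files were read with Python 3.11.15 and pandas 2.3.3, and figures drawn with matplotlib 3.10.9.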

Additional observations from a re-analysis of the deposited data

Results flagged for a closer look

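The log2 scaled signals of the representative probes were searched, group by group, for an array whose gap to its nearest neighbour took up most of the group's range (Dixon's test at its 95% critical value). Of 79 groups of values tested, 30 held such an array, where chance gives about 1 in 20; 28 of the 30 were an array numbered 4. On LPS replicate 4, 15 genes lay below the other 3 arrays: RPSA at 10.75, RPS2 at 10.95, RPS3 at 15.36, RPS3A at 13.72, RPS4Y1 at 8.62, RPS6 at 12.51, RPS14 at 9.76, RPS15A at 12.67, RPS18 at 12.94, RPS19 at 13.57, RPS20 at 11.60, RPS24 at 12.23, RPS26 at 11.21, RPS27L at 6.29 and RPS29 at 13.18. On day 0 replicate 4, 9 genes lay below: RPSA at 12.19, RPS2 at 12.44, RPS4Y1 at 10.23, RPS15A at 12.56, RPS19 at 14.87, RPS20 at 12.41, RPS24 at 14.44, RPS26 at 11.37 and RPS27L at 6.03. On probiotic replicate 4, RPS4X at 6.26, RPS10 at 7.10 and RPS28 at 7.07 lay below the rest of the group and RPS14 at 14.53 above it. Day 0 replicate 1 lay above its group for RPS4X, at 5.96 with the other 3 arrays at the floor, and untreated replicate 2 for RPS27A, at 9.13 with the other 3 at the floor.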

How the results depend on the processing

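Counts below are small-subunit probes called higher and lower; the cause of a changed count was not tested. In probiotic against untreated, 32 and 18 became 44 and 8 when scaled to the 75th percentile of all probes, 56 and 7 when scaled to the median, 57 and 9 with no scaling, 37 and 12 after quantile normalization, 14 and 25 after cyclic loess, and 38 and 8 after normexp and quantile. Over all tested probes the first 3 of these gave 33.0% and 15.2%, 47.7% and 10.4%, and 52.6% and 9.72%. The other 3 gave 34.6% and 19.8%, 6.40% and 30.4%, and 28.1% and 16.9%. They were 21 and 12 by percentile rank, 21 and 6 by rank within a band of rows, 22 and 6 by rank among neighbouring spots, 32 and 11 for probes detected on all arrays of a group, 33 and 8 with the highest floor, 29 and 21 on the processed signal, 49 and 17 without the 3 arrays numbered 4, and 13 and 31 past 2-fold in the authors' averages. All tested probes gave 35.9% and 9.02%, 31.8% and 9.12%, and 31.8% and 11.9% by the 3 ranks. Next came 32.6% and 28.6% for probes detected on all arrays of a group, and 10.3% and 14.5% with the highest floor. The processed signal gave 14.2% and 35.3%, leaving out the arrays numbered 4 28.3% and 28.4%, and the authors' averages 2.18% and 21.4%. In probiotic against day 0, 8 and 3 became 9 and 26 on the processed signal, 5 and 4, 21 and 5, 35 and 5, 13 and 5, 0 and 6, and 6 and 1 under the same 6 scalings in order, and 5 and 6, 3 and 5, and 2 and 7 by the 3 ranks. All tested probes gave 24.9% and 21.1% on the processed signal. Under the 6 scalings they gave 2.40% and 1.69%, 35.6% and 1.30%, and 61.3% and 0.917%, then 8.19% and 1.31%, 0.698% and 1.62%, and 1.25% and 0.763%. By the 3 ranks they gave 6.30% and 1.91%, 5.66% and 1.98%, and 5.83% and 2.20%. They were 0 and 0 with no filter on dim probes and with the highest floor, 12 and 4 for probes detected on all arrays of a group and when scaled with the members left out, 11 and 5 with a floor of 1 unit, 2 and 7 with 2 groups only, 16 and 4 without the arrays numbered 4, and 13 and 52 in the authors' averages. All tested probes gave, in the same order, 0.712% and 0.135%, 0.751% and 0.154%, 5.63% and 1.09%, and 6.05% and 0.970%. Next came 5.51% and 1.63%, 6.97% and 3.05%, 8.98% and 2.47%, and 54.8% and 12.1%. In LPS against probiotic, 2 higher became 1 when scaled to the 75th percentile of all probes, unscaled, after quantile, after normexp and quantile, by rank within a band or among neighbours, with no filter and with the highest floor, 3 with a floor of 1 unit and without the arrays numbered 4, and 4 on the processed signal, scaled to the median and after cyclic loess. None was lower except 34 in the authors' averages, against 24 higher. Over all tested probes the share of higher calls in these settings ran from 0.0414% with the highest floor to 1.80% after cyclic loess. In the authors' averages 10.5% were higher and 49.0% lower. In untreated against day 0, 13 and 32 became 4 and 29 on the processed signal, 1 and 37, 2 and 36, 4 and 29, 6 and 30, 19 and 19, and 3 and 33 under the 6 scalings, 7 and 23, 3 and 25, and 3 and 24 by the ranks, 7 and 31 with the highest floor, 24 and 35 without the arrays numbered 4, and 21 and 36 in the authors' averages. All tested probes gave, in the same order, 28.6% and 5.70%, 12.5% and 25.1%, 13.4% and 16.9%, and 16.8% and 8.31%. Next came 19.3% and 23.2%, 24.4% and 3.58%, 15.3% and 21.5%, 14.5% and 28.8%, and 14.1% and 25.4%. The last were 16.1% and 26.4%, 13.6% and 5.69%, 28.8% and 21.3%, and 64.0% and 10.9%. Leaving out 1 array gave 28 to 47 higher and 14 to 16 lower in probiotic against untreated, 0 to 17 and 0 to 2 in probiotic against day 0, 1 to 3 and 0 to 0 in LPS against probiotic, and 7 to 13 and 30 to 34 in untreated against day 0. All tested probes gave 21.8% to 26.5% and 27.7% to 32.7% in probiotic against untreated, and 1.48% to 7.44% and 0.284% to 0.958% in probiotic against day 0. They gave 0.148% to 0.609% and 0.00592% to 0.657% in LPS against probiotic, and 26.6% to 32.8% and 12.9% to 19.9% in untreated against day 0.

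Cyclic loess turned the sign in probiotic against untreated for RPS6 (-2.29), RPS14 (-1.83), RPS15A (-0.95), RPS18 (-1.16) and RPS20 (-2.45), and in untreated against day 0 for RPS6 (0.43). In probiotic against day 0 the processed signal turned RPS3 (1.72), RPS6 (2.39) and RPS29 (2.16), and no scaling turned RPS3 (1.99) and RPS3A (2.10). In untreated against day 0 the processed signal turned RPS4X (-0.19), RPS6 (0.073) and RPS28 (-0.19). The values named here as turned were called in the main setting, in the other setting or in both. Of the other values of single genes, 463, 456, 483 and 471 kept their call or stayed uncalled in the 4 comparisons. Values that stayed uncalled were counted whatever their sign. A call was lost in 53, 57, 0 and 34 values and gained in 31, 11, 0 and 20.

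Deviations of same-numbered arrays correlated between -0.274 and 0.385, with no common sign. Differently numbered arrays were not compared, so these values cannot decide whether replicate numbers paired the arrays. With the replicate number as a block the counts were 33 and 16, 9 and 3, 1 and 0, and 15 and 33. All tested probes then gave 26.3% and 29.5%, 3.19% and 0.840%, 0.189% and 0.00592%, and 28.7% and 17.8%. The low detection on the untreated and on the numbered 4 arrays limits what can be measured there: at most 17.9% of spots were above background on the untreated arrays.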
